A study of Mus musculus with 12 samples.

Results

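The CTLH complex is a ubiquitin ligase built from several subunits, and the levels of its transcripts were examined in the livers of wild type and Siah2 KO mice at ZT10. Its 10 subunit genes were taken by symbol, Armc8, Gid8, Rmnd5a, Rmnd5b, Maea, Ranbp9, Ranbp10, Wdr26, Mkln1 and Gid4, and all 10 were among the 23420 gene symbols counted. Armc8 was chosen by a measured value: it had the smallest p-value of all genes between Siah2 KO and wild type females. Its values in any comparison with female livers are therefore given as a description, with no test, and only the male comparison tests it. The other 9 genes were taken because they belong to the complex.

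A ubiquitin ligase brings a ubiquitin-charged conjugating enzyme to a substrate protein, which is then marked for degradation or another fate. In yeast the same assembly is called GID and degrades gluconeogenic enzymes when glucose returns, while in mammals the complex has a wider set of substrates. RMND5A and MAEA form the catalytic core with paired RING-type domains, GID8 and RANBP9 or RANBP10 hold that core, ARMC8 links it to substrate receptors such as GID4, and WDR26 and MKLN1 join complexes into larger assemblies. SIAH2, the protein missing in the KO mice, is a RING-type ubiquitin ligase of a separate family.

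The 12 livers fell into 4 groups of 3 mice: wild type females (WTF), Siah2 KO females (KOF), wild type males (WTM) and Siah2 KO males (KOM). All mice were on a C57BL/6 background, were about 20 weeks of age, ate normal chow under a light-dark cycle and had their livers collected at ZT10, 10 h after lights on. The KO mice lack Siah2 in every tissue, and the wild type and KO mice came from separate, related lines founded by homozygous offspring of heterozygotes, so that differences between the lines cannot be told apart from the effect of the KO. By the study's methods each sample was 1 liver, whereas the labels speak of pools of 3 mice. The samples were treated as individual mice, each named by its number.

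RNA was measured with QuantSeq, which reads the 3′ end of polyadenylated transcripts and so does not count a longer transcript more often. Between 1293688 and 4056144 reads per liver were counted on genes, and the 10 subunits together took between 0.0487% and 0.119% of them. Levels are given in CPM, a gene's count relative to the total of its library, with TMM scaling over all 12 libraries. Siah2 itself was low, at 17.0, 12.3 and 11.5 CPM in WTF, 10.0, 12.5 and 9.63 in KOF, 16.8, 27.1 and 21.4 in WTM and 9.42 to 17.4 in KOM. The groups overlapped in both sexes, and where the deleted part of the gene lies relative to the 3′ reads was not given, so these counts do not check the genotype. Wild type female 1091 stood apart: its counts differed from the other 2 wild type females by a chi-square of 42.0 and 44.9 per degree of freedom, against 6.70 to 21.8 for the other pairs within groups. Fold changes of subunits named here that moved by over 1.5 times or across the threshold when it was left out are given with and without it. Hepatocyte markers summed to between 20171 and 37351 CPM in each liver.

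The start regions of 3 subunit genes are shown first, those of Armc8 and Rmnd5a because their levels differed most between the female groups, and that of Wdr26 because it holds a clock motif. RefSeq, build GRCm38.p6, the patch release of the mm10 assembly, held promoter windows for 8 of the 10 subunit symbols, each running from 250 bases before to 50 bases after a start site. Armc8 lies on chr9:99478385-99568907 on the minus strand and its window on chr9:99568850-99569149. Rmnd5a lies on chr6:71388634-71440637 on the minus strand and its window on chr6:71440588-71440887. Wdr26 lies on chr1:181173226-181220921 on the minus strand and its window, at a start inside the gene, on chr1:181211929-181212228. The windows are written 5′ to 3′ in the sense of the gene, and capitals mark the E-box CACGTG, the site that the clock activators CLOCK and BMAL1 are known to bind.
Armc8: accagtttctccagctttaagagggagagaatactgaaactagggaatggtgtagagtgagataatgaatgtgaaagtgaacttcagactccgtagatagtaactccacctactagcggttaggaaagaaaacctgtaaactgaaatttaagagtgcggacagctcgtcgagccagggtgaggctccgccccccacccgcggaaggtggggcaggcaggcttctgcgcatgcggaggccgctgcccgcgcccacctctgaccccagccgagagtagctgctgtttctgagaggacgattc
Rmnd5a: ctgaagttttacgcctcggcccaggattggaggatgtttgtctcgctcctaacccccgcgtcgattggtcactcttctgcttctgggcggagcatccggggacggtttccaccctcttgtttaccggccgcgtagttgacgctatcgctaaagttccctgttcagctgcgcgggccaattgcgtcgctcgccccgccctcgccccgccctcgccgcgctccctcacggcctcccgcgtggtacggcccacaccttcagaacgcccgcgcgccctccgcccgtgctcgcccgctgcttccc
Wdr26: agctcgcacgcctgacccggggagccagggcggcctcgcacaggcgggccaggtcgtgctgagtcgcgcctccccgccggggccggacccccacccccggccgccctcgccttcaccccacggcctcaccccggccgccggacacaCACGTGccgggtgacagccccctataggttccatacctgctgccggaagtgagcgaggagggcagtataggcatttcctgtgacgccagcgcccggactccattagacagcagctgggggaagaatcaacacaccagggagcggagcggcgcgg
These windows were 54.3%, 66.7% and 71.3% G and C for Armc8, Rmnd5a and Wdr26, against a median of 52.7% over 32851 promoters. They held 15, 37 and 30 CpG pairs. Among the 10 windows of the subunits, the E-box, searched on both strands, stood in those of Wdr26 and Gid4, and it stood in 7.15% of all promoters. The hypoxia response core ACGTG, which lies inside the E-box, stood in the windows of the same genes and in 19.6% of all promoters. The letters AGGTCA, the core letters of REV-ERB and ROR receptor sites, stood in none of the 10 windows and in 16.3% of all promoters. A match in these windows describes letters only.

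Armc8, whose product carries armadillo repeats and connects the ligase core to its receptors, was read at 45.1, 32.4 and 30.3 CPM in the 3 WTF livers and at 118, 152 and 161 CPM in the KOF livers. In males it was at 49.7, 76.9 and 88.5 CPM in WTM and at 72.0, 54.7 and 85.8 CPM in KOM. Every KOF liver was above all 9 other livers, every WTF liver was below all others, and the male groups overlapped. The mean was 35.9 ± 8.03 CPM in WTF, 144 ± 22.8 in KOF, 71.7 ± 19.9 in WTM and 70.8 ± 15.6 in KOM (SD, n = 3 each). In order of mean level the groups ran KOF, WTM, KOM and WTF, with WTM and KOM not apart beyond their spread. The log2 fold change between KOF and WTF was 1.99, in the comparison whose p-value chose the gene. As a share of all counts on the 10 subunits, which does not depend on how libraries are scaled, Armc8 took 6.20%, 3.89% and 5.58% in WTF and 10.1%, 14.1% and 13.7% in KOF. It took 5.14% to 7.43% in WTM and 5.78% to 7.86% in KOM, so the share in KOF was above that in all other livers. The share is built from the same female counts that chose the gene and is also a description only. The counts behind these levels ran from 65 to 435 reads per liver. In RefSeq Armc8 overlaps Nme9 by 1515 bases, and Nme9 had 0 counts in all libraries.

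**Figure D1:**
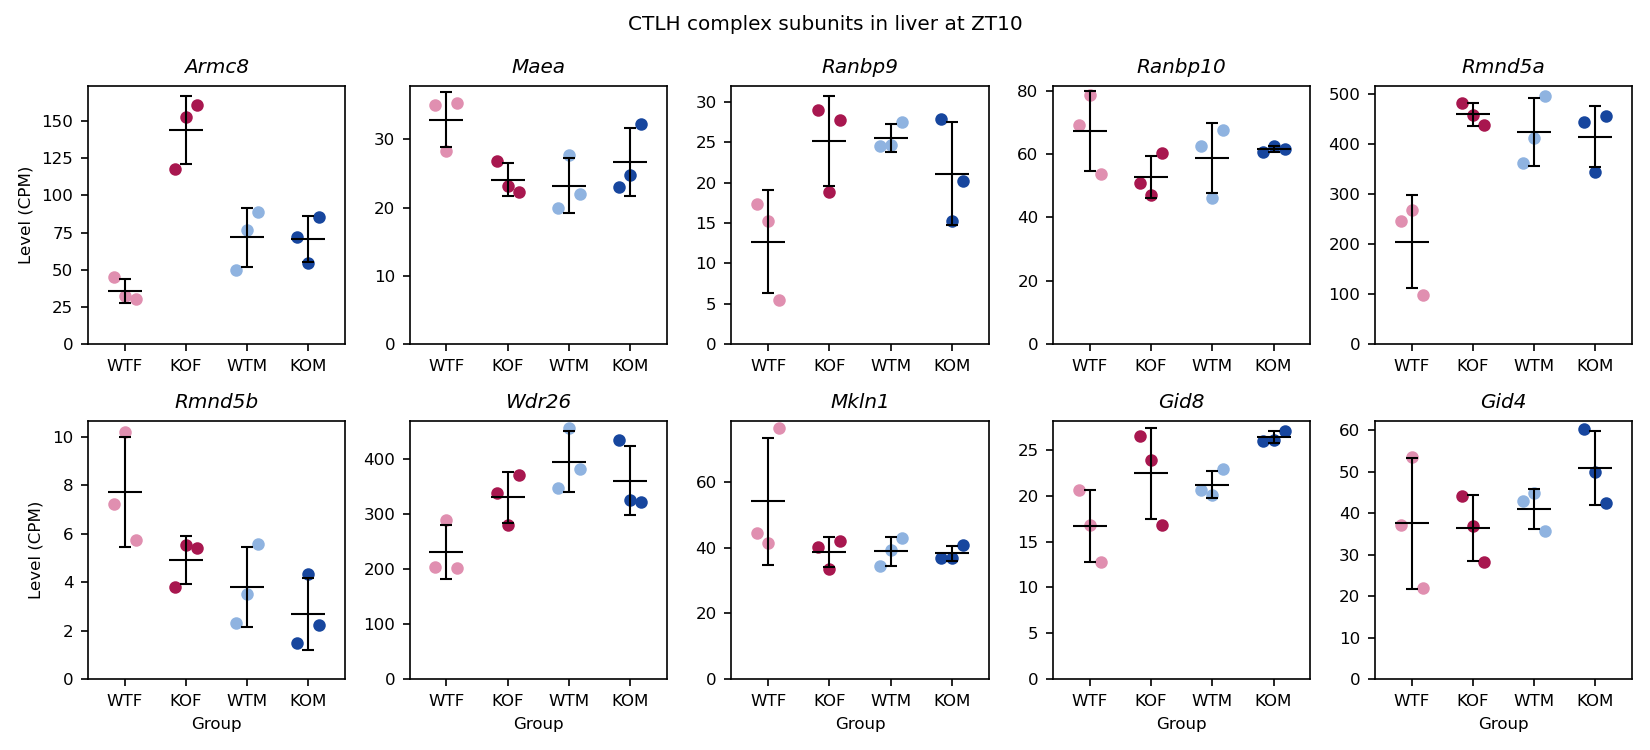
Level of each of the 10 CTLH subunit transcripts in CPM (vertical axis, from 0) in the 4 groups, with 1 point per liver and a bar for the mean and SD (n = 3). The KOF points of Armc8 lie above all other livers, and in Rmnd5a the 3 WTF points lie below all other livers.

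In males Armc8 could be tested, since that comparison did not choose it. The level in KOM differed from that in WTM by a log2 fold change of -0.04 (95% interval -0.53 to 0.44; adjusted p = 0.9999, edgeR quasi-likelihood test). Of the 9 subunits tested in males none was called, against a background of 0% of the 8823 genes tested, and none had an unadjusted p under 0.05, a background of 4.05%. DESeq2 and limma-voom also called 0 of the 9, with 0.0567% and 0% of all genes called. Rmnd5b was not tested there, with 3 to 18 reads per liver. Gid8 was the only subunit whose male groups did not overlap, 1 of 10, where 8.87% of all genes tested had groups that did not overlap. Its levels were 20.6, 20.1 and 22.9 CPM in WTM and 26.0, 26.0 and 27.1 in KOM, with a log2 fold change of 0.30 (95% interval -0.16 to 0.75; adjusted p = 0.9999).

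Among females the other 9 subunits did not move in 1 direction. Against WTF, 4 were higher in KOF and 5 were lower. Their median log2 fold change was -0.05, beside -0.03 over all 9465 genes tested. None of the 9 was called by edgeR, which called 0% of all genes, and 2 of the 9, Rmnd5a and Ranbp9, had an unadjusted p under 0.05, against a background of 15.6%. DESeq2 called 1 of the 9, Rmnd5a, against a background of 3.02%, and limma-voom called 0 of them and 0% of all genes. The groups did not overlap for 4 of the 9, Rmnd5a and Ranbp9 being higher and Maea and Rmnd5b lower in KOF, where 23.3% of all genes did not overlap. The p-values measure the spread between these samples, and in whole liver fewer cells of a type cannot be told apart from less RNA per cell.

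Rmnd5a encodes a RING-type subunit of the catalytic core. It was the most abundant subunit in KOF, at 483, 458 and 438 CPM, and was at 247, 269 and 98.1 CPM in WTF. WTM had 362, 413 and 496 CPM and KOM had 444, 345 and 455 CPM. The 3 WTF livers were below all other livers, and the KOF livers lay within the range of the males. The log2 fold change between KOF and WTF was 1.15 (SE 0.35; 95% interval 0.38 to 1.93), and the adjusted p was 0.160 in edgeR but 0.0441 in DESeq2. The lowest value, 98.1 CPM, belonged to liver 1091. Without it the log2 fold change was 0.83, and edgeR's adjusted p was 0.0149, where 9.64% of all genes were called. In males the log2 fold change was -0.05 (95% interval -0.40 to 0.31). The female effect minus the male effect was 1.20 (95% interval 0.34 to 2.06; adjusted p = 0.187, edgeR), and without liver 1091 it was 0.88 with an adjusted p of 0.0421, where 5.15% of all genes were called.

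The paralog Rmnd5b was much lower, between 3 and 34 reads per liver. It was at 7.22, 10.2 and 5.73 CPM in WTF and at 3.79, 5.52 and 5.42 CPM in KOF, with 1.51 to 5.57 CPM in the males. The log2 fold change between KOF and WTF was -0.69 (95% interval -1.57 to 0.19; adjusted p = 0.441, edgeR). Maea, the other RING-type subunit of the core, was at 35.0, 28.2 and 35.4 CPM in WTF and at 26.8, 23.2 and 22.3 CPM in KOF. All WTF livers were above all KOF livers, while the log2 fold change of -0.45 (95% interval -0.98 to 0.08; adjusted p = 0.396) did not pass the test. In males Maea overlapped between genotypes, at 19.9 to 27.6 CPM in WTM and up to 32.3 CPM in KOM.

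The scaffold subunits RANBP9 and RANBP10 are paralogs that take the same place in the complex. Ranbp9 was at 17.3, 15.3 and 5.41 CPM in WTF and at 29.0, 18.8 and 27.7 CPM in KOF. It was at 24.5, 24.6 and 27.5 CPM in WTM and at 27.9, 15.2 and 20.2 CPM in KOM. The female groups did not overlap, and 5.41 CPM, or 17 reads, in liver 1091 was the lowest of all 12 livers. The log2 fold change between KOF and WTF was 0.97 (95% interval 0.07 to 1.87; adjusted p = 0.280, edgeR), and without liver 1091 it was 0.62 (adjusted p = 0.159). Ranbp10 was at 69.3, 78.6 and 53.8 CPM in WTF and at 50.9, 47.1 and 60.2 CPM in KOF, groups that overlapped, with a log2 fold change of -0.37 (95% interval -0.90 to 0.16). It was at 46.2 to 67.5 CPM in WTM and 60.7 to 62.5 CPM in KOM. The 3′ end of Ranbp9 overlaps that of Nol7, on the other strand, by 186 bases. Whether counting used the strand was not stated, so reads of both genes could be shared, and Nol7 was at 104 ± 22.1 CPM in WTF and 93.5 ± 6.12 CPM in KOF (SD, n = 3 each). Rmnd5b overlaps Nhp2 in the same way by 46 bases, with Nhp2 at 27.8 ± 7.76 CPM in WTF and 41.5 ± 7.78 CPM in KOF.

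**Figure D2:**
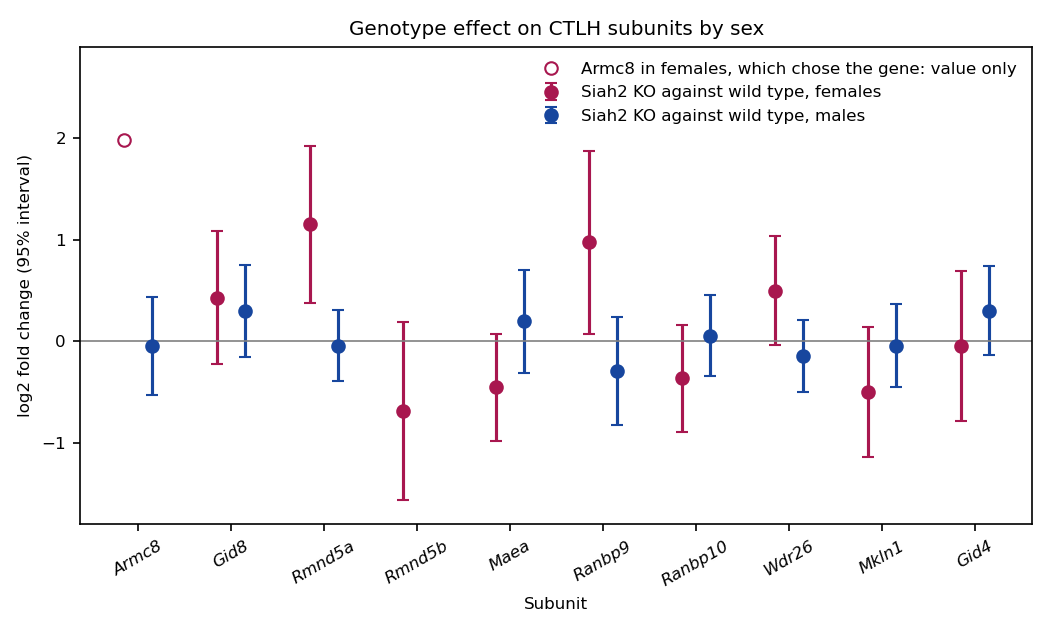
Log2 fold change of Siah2 KO against wild type for each subunit (vertical axis) in females and in males, with 95% intervals from edgeR. The open point is the female value of Armc8, 1.99, shown without an interval because the p-value of that comparison chose the gene, and Rmnd5b has no male value.

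WDR26 and MKLN1 carry propeller domains and link complexes to one another, and WDR26 also takes part in binding substrates. Wdr26 was at 204, 289 and 203 CPM in WTF and at 339, 281 and 372 CPM in KOF. It was at 347, 456 and 383 CPM in WTM and at 435, 327 and 323 CPM in KOM. The female groups overlapped through 1 liver of each, and the log2 fold change was 0.50 (95% interval -0.04 to 1.04; adjusted p = 0.363, edgeR). Mkln1 was at 44.4, 41.4 and 76.4 CPM in WTF, where liver 1091 had the highest value of all 12, and at 40.3, 33.5 and 42.1 CPM in KOF. The other 6 livers, of males, lay between 34.4 and 43.0 CPM. The log2 fold change of Mkln1 between KOF and WTF was -0.50 (95% interval -1.14 to 0.14; adjusted p = 0.441), and without liver 1091 it was -0.15 (adjusted p = 0.670).

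Gid8, a scaffold next to the RING pair, and Gid4, the receptor for substrates with a particular first residue, overlapped between the female groups. Gid8 was at 20.6, 16.8 and 12.7 CPM in WTF and at 26.5, 23.9 and 16.9 CPM in KOF, with a log2 fold change of 0.43 (95% interval -0.23 to 1.08). Gid4 was at 37.2, 53.4 and 22.0 CPM in WTF and at 44.1, 36.8 and 28.3 CPM in KOF, with a log2 fold change of -0.05 (95% interval -0.79 to 0.69), or -0.30 without liver 1091 (adjusted p = 0.472). In males Gid4 was at 42.8, 44.7 and 35.6 CPM in WTM and at 60.3, 49.9 and 42.4 CPM in KOM, with a log2 fold change of 0.30 (95% interval -0.14 to 0.74). The receptor transcript was thus not apart between genotypes in either sex. Gid4 overlaps the start of Atpaf2, on the other strand, in the annotation.

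The genotype effect in females minus that in males asks whether the sexes differ, and for Armc8 it was 2.02, given as a description. Of the other 9 subunits edgeR called 0, against a background of 0.255% of 9806 genes, and DESeq2 and limma-voom also called 0, where they called 2.39% and 0.286% of all genes. An unadjusted p under 0.05 was seen for 3 of the 9, against a background of 14.1%. These were Rmnd5a, Ranbp9 with a difference of 1.27 (95% interval 0.22 to 2.31; adjusted p = 0.247, edgeR) and Wdr26 with a difference of 0.64 (95% interval 0.01 to 1.28; adjusted p = 0.350). All 3 were positive, as the female value was above the male one. With both sexes combined, 0 of the 9 were called by edgeR, DESeq2 or limma-voom, where edgeR and DESeq2 each called 0.0111% of all genes and limma-voom 0%, and 0 had an unadjusted p under 0.05, a background of 5.65%. The combined log2 fold change of Armc8 was 0.99, again with no test, and that of Rmnd5a was 0.47 (95% interval -0.09 to 1.04). Leaving out wild type female 1091 gave a combined log2 fold change of 0.28 for Rmnd5a.

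In wild type mice the females were compared with the males, a comparison that shares the WTF livers with the female genotype comparison. Counts were deposited as 1 table per sex, and whether all libraries were prepared together was not stated. Any difference in handling between the tables cannot be told apart from sex, here and between the KO groups. Rmnd5a, Ranbp9 and Wdr26 were lower in every WTF liver than in every WTM liver, and Maea and Rmnd5b were higher, so the groups did not overlap for 5 of the 9 subunits, where 22.7% of all genes did not overlap. The log2 fold changes of WTF against WTM were -1.03 for Rmnd5a (95% interval -1.81 to -0.26; adjusted p = 0.195, edgeR), -0.99 for Ranbp9 (adjusted p = 0.249) and -0.74 for Wdr26 (adjusted p = 0.192). They were 0.53 for Maea (adjusted p = 0.386) and 0.95 for Rmnd5b (adjusted p = 0.345). EdgeR, DESeq2 and limma-voom each called 0 of the 9, where they called 1.39%, 3.51% and 1.16% of all genes, and 3 of the 9 had an unadjusted p under 0.05, against 15.2%. Without liver 1091 Rmnd5a was called, at -0.71 with an adjusted p of 0.0442, where 7.73% of all genes were, and Ranbp9 was at -0.65 with an adjusted p of 0.133. The value of Armc8 was -0.98, given as a description.

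Between KO females and KO males Armc8 differed by a log2 fold change of 1.01, given as a description. EdgeR, DESeq2 and limma-voom each called 0 of the other 9, where they called 11.5%, 10.9% and 12% of all genes, and 1 of the 9 had an unadjusted p under 0.05, against 26.1%. That was Gid4, with a log2 fold change of -0.45 (95% interval -0.89 to -0.0024; adjusted p = 0.189, edgeR). Ranbp10 was the only 1 of the 9 whose groups did not overlap, being lower in KOF, where 30.7% of all genes did not overlap. Rmnd5b, on 4 to 15 reads per liver, differed by 0.88 (95% interval -0.19 to 1.95; adjusted p = 0.291), Rmnd5a by 0.15 (95% interval -0.17 to 0.48) and Ranbp9 by 0.25 (95% interval -0.30 to 0.81).

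The balance between related subunits was also read as a share of counts, a measure that needs no scaling between libraries. These pairs were set after the levels had been seen. Ranbp9 made up 20%, 16.3% and 9.14% of the counts of Ranbp9 and Ranbp10 in WTF and 36.3%, 28.5% and 31.5% in KOF. It made up 28.1%, 34.8% and 29.0% in WTM and 31.5%, 19.6% and 24.7% in KOM. WTF was the group with the lowest shares, and its highest liver, at 20% (95% interval 15.1% to 25.6%, exact Clopper-Pearson), was just above the lowest KOM liver. Rmnd5b made up 2.84%, 3.66% and 5.52% of the counts of the RMND5 pair in WTF, 0.778% to 1.22% in KOF, 0.629% to 1.11% in WTM and 0.339% to 1.24% in KOM. Mkln1 made up 17.9%, 12.5% and 27.4% of the counts of Mkln1 and Wdr26 in WTF and 10.6%, 10.7% and 10.2% in KOF. It made up 7.91% to 10.1% in WTM and 7.83% to 11.2% in KOM. In the RMND5 and the Mkln1 and Wdr26 pairs every WTF liver was above all other livers.

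For each of the 3 pairs, the difference between KOF and WTF and that between WTF and WTM had an exact permutation p of 0.1, two-sided, the smallest that 3 against 3 livers can give, and 0.2 after adjustment over 12 tests. The difference between KOM and WTM had an exact permutation p of 0.3, 0.6 and 0.7 for the Ranbp9, Rmnd5b and Mkln1 shares. Since the pairs were set after the levels had been seen, these p-values describe the separation and are not independent tests. Intervals on a share cover counting error within a liver only and hold no spread between mice. No use of molecular identifiers was stated, so reads copied from the same molecule may have been counted separately.

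**Figure D3:**
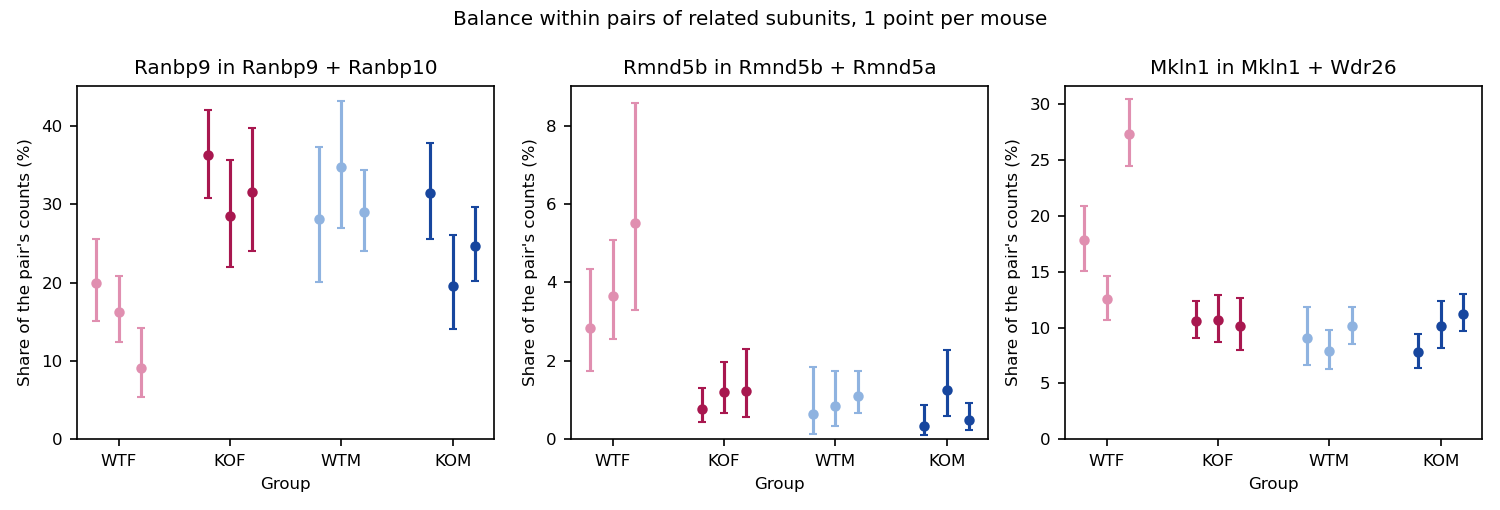
Share of a pair's counts taken by Ranbp9, Rmnd5b or Mkln1 in percent (vertical axis, from 0), with 1 point per liver and its exact 95% interval for counting error, by group. The Ranbp9 share is lowest in WTF, at 9.14% to 20%, and the Rmnd5b and Mkln1 shares are highest there.

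Summed over the 10 subunits, the level was 728, 834 and 543 CPM in WTF, 1161, 1080 and 1173 CPM in KOF, 966 to 1192 CPM in WTM and 946 to 1187 CPM in KOM. The WTF livers were below all others, in a sum that holds Armc8, which was chosen on the female livers. Without Armc8 the sum was 512 to 801 CPM in WTF, 928 to 1043 in KOF and 892 to 1115 in the males. The WTF livers were below all others in that sum too. Without Armc8 and Rmnd5a the sum was 414 to 533 CPM in WTF and 470 to 575 CPM in KOF, which overlapped, and 546 to 671 CPM in the males. Rmnd5a and Wdr26 were the most abundant subunits and Rmnd5b the least in all 4 groups by mean level.

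Across the 12 livers, genes were ordered by the Pearson r of their log2 CPM with that of Armc8, among 6696 genes of at least 10 CPM on average. The nearest were Ciao1, which takes part in cytosolic iron-sulfur protein assembly (r = 0.958), Hiatl1, a membrane transporter gene (0.935), Cyp2e1, a cytochrome P450 of pericentral hepatocytes (0.929), Ewsr1, an RNA-binding protein gene (0.920), and Lgals8, which encodes galectin-8 (0.918). The r describes these 12 livers, which fall into groups. Ciao1 was at 26.1 to 29.1 CPM in WTF, 49.2 to 65.5 in KOF, 33.6 to 55.1 in WTM and 37.3 to 47.5 in KOM, so its groups had the same order by mean as those of Armc8. Among the subunits Rmnd5a was nearest to Armc8 (r = 0.767), then Ranbp9 (0.665), Wdr26 (0.491) and Gid8 (0.473). Gid4 was at -0.04, and Maea (-0.47), Mkln1 (-0.48) and Ranbp10 (-0.49) ran the other way.

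**Figure D4:**
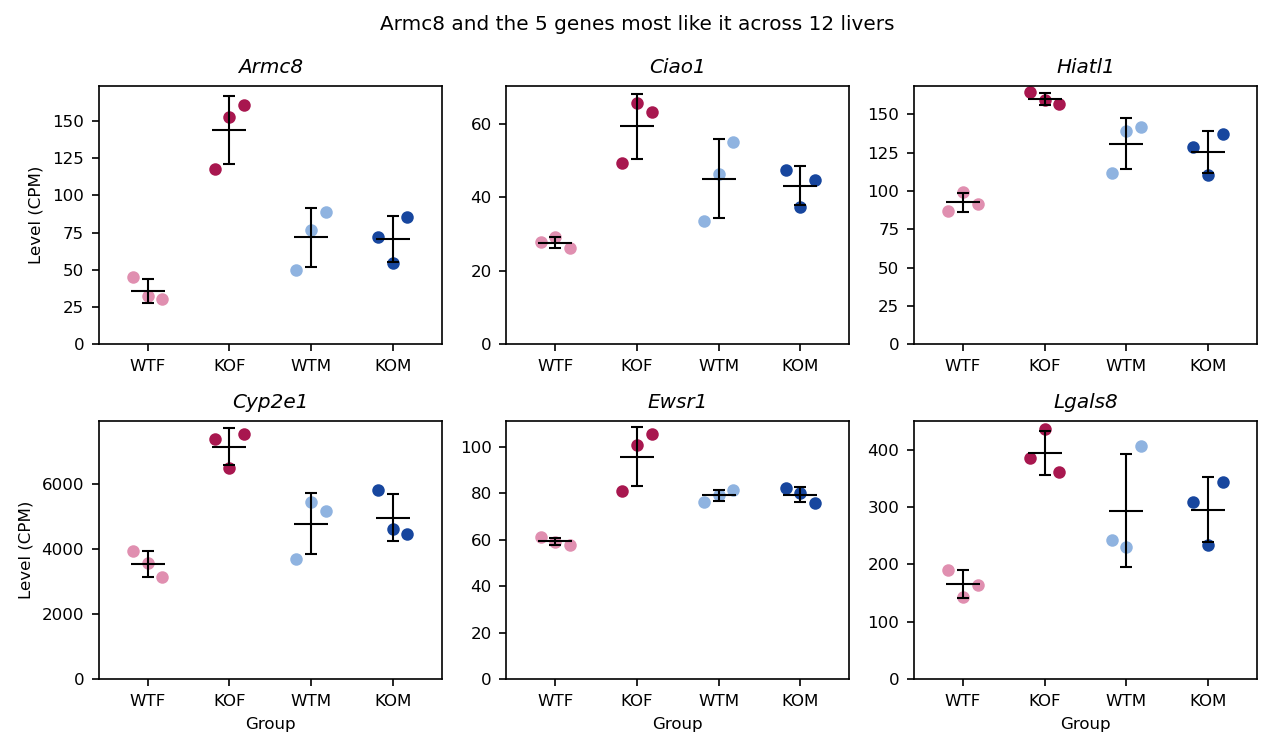
Levels in CPM (vertical axis, from 0) of Armc8 and the 5 genes with the highest Pearson r to it across 12 livers, with 1 point per liver and a bar for the mean and SD (n = 3) in each group. In all 6 panels KOF has the highest mean and WTF the lowest, which largely follows from how the 5 genes were picked.

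The partners and reported substrates of the complex were looked at as a list of 7 genes. Ube2h encodes the conjugating enzyme that works with the complex, and Ypel5 a protein that binds WDR26. Of the 6 genes tested in females none was called by edgeR or DESeq2, against 0% and 3.02% of all genes. An unadjusted p under 0.05, a background of 15.6%, was seen for 3, at log2 fold changes of 0.64 for Ypel5, -0.49 for Ube2h and 1.62 for Nmnat1, the last on 2 to 17 reads per female liver. The median log2 fold change of the 6 was -0.11, beside -0.03 over all genes. In males 0 of the 5 tested were called by either tool, against 0% and 0.0567% of all genes, and 1, Hmgcs1 of cholesterol synthesis, had an unadjusted p under 0.05 (log2 fold change -0.53), against a background of 4.05%. In females Hmgcs1 had the same direction, at -1.13 (95% interval -2.26 to 0.0021; unadjusted p = 0.0503, edgeR). Its female effect minus its male effect was -0.60 (95% interval -1.88 to 0.68). Between KO females and KO males Ube2h was lower in females, at 99.0, 94.6 and 94.5 CPM against 152, 115 and 174 CPM. The groups did not overlap, and the log2 fold change was -0.61 (SE 0.17; adjusted p = 0.0324, edgeR). It was the only 1 of the 6 partners tested in that comparison that passed, where 11.5% of all genes were called and 30.7% had groups that did not overlap, while Zmynd19, at 1 to 9 reads, was not tested.

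Gluconeogenic enzymes, only some of which have yeast counterparts that are GID substrates, were a list of 6 genes. In females edgeR called none of the 6, DESeq2 called 2, and the unadjusted p was under 0.05 for 4, against 0%, 3.02% and 15.6% of all genes. These were Pck1, which makes phosphoenolpyruvate from oxaloacetate, higher in KOF (log2 fold change 1.59 by edgeR; adjusted p = 0.0275, DESeq2), and Mdh2, the mitochondrial malate dehydrogenase, lower (-0.95; adjusted p = 0.0239, DESeq2). Mdh1, the cytosolic malate dehydrogenase, was at 0.54 and Pcx, pyruvate carboxylase, at -0.81, so the 6 enzymes were 3 higher and 3 lower. In males none was called by either tool and none had an unadjusted p under 0.05, against 0%, 0.0567% and 4.05% of all genes. Between KO females and KO males edgeR called Fbp1, fructose-1,6-bisphosphatase (0.98; adjusted p = 0.00294), and Mdh1 (0.90; adjusted p = 0.00186), both higher in females, 2 of 6 where 11.5% of all genes were called. Fbp1 was also higher in WTF than in WTM (1.30; adjusted p = 0.0285, edgeR), 1 of 6 where 1.39% of all genes were called. These are transcript levels, and no protein was measured.

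Markers of other cells were read beside these results. Kupffer cell markers, 6 genes, summed to 377 to 519 CPM in WTF, 296 to 734 in KOF, 70.6 to 533 in WTM and 89.7 to 188 in KOM. The highest sums, in KOF 1070 and WTM 1086, held 307 and 243 CPM of Marco. It was at 29.8 and 48.8 CPM in the other KOF livers and 29.8 and 5.26 in the other WTM livers. By mean Marco was higher in KOF than in WTF, and the other Kupffer markers were lower or, for Clec4f, near equal. Csf1r did not overlap, at 23.4 to 39.7 CPM in WTF and 18.7 to 23.3 in KOF. Of 5 red blood cell markers, 4 globin genes were listed at 0 in all 12 livers, and the sum, which is that of Alas2, was 8.47 to 25.2 CPM in females and 83.9 to 154 CPM in males. Markers of other immune cells summed to 10.5 to 12.9 CPM in WTF, 5.16 to 9.20 in KOF and 1.86 to 6.12 in males. Markers of bile duct cells summed to 6.05 to 25.2 CPM, of stellate cells to 37.5 to 82.7, of sinusoidal endothelial cells to 68.0 to 130, of adipocytes to 1.44 to 9.80 and of pancreatic acinar cells to 10.8 to 57.4, with Plin1, Cpa1 and Amy2a5 listed at 0. WTF and KOF overlapped in the hepatocyte, Kupffer cell, bile duct, stellate, adipocyte and acinar sums. Every KOF liver was below every WTF liver in the other immune, endothelial and Alas2 values, with 8.47 to 19.3 CPM of Alas2 in KOF and 20.1 to 25.2 in WTF. Of all single genes tested, 23.3% had female groups that did not overlap. The members of these sums did not all agree. Lyve1 had a mean of 11.8 CPM in WTF and 25.9 in KOF, while Stab2, Clec4g and Pecam1 were lower in KOF by mean. The immune sum was mostly Ptprc, at 9.44 CPM in WTF and 5.74 in KOF by mean, while Nkg7 and Cd79a had higher means in KOF. The part of these cell types in the differences of Armc8 and Rmnd5a was not tested.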

How the data were processed

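Total liver RNA of 12 mice was profiled with QuantSeq on an Illumina instrument. The authors trimmed and mapped the reads on the BaseSpace platform and deposited raw read counts per gene symbol, 1 table per sex. The submitters' processing notes name STAR, DESeq and mm10, with no versions, and no source used here says whether counting used the strand. Groups came from the sample labels. Each comparison used edgeR 4.0.16 in R 4.3.3 (filterByExpr, TMM scaling, two-sided quasi-likelihood F test, Benjamini-Hochberg over all genes tested, threshold 0.05), a main test chosen for counts, where the paper used DESeq2. DESeq2 1.42.0 and limma 3.58.1 (voom) were alternatives. Only the groups compared entered a fit, except that all 12 samples entered the combined fit and the difference between the sexes. Log2 CPM used a prior count of 3. Intervals on fold changes are 95% intervals from the fit's t quantile. Shares, exact tests and figures used Python 3.11.15, scipy 1.17.1 and matplotlib 3.10.9. The scripts were tested on simulated counts. Genes named are the 10 subunits, Siah2, the list of 7 partners, the list of 6 gluconeogenic enzymes and the 5 genes with the highest r to Armc8. The subunits and lists were chosen with earlier results of these data known. Overlapping neighbours (Nol7, Nhp2) were named after the annotation was read.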

Additional observations from a re-analysis of the deposited data

How the results depend on the processing

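No paired analysis was possible because the groups share no mouse numbers. Among the 9 subunits other than Armc8, the number called between KOF and WTF was 0 and became 1, Rmnd5a, with DESeq2, with no filter beyond 1 count and in the fit of all 12 samples in 4 groups, and it ranged from 0 to 1 when each mouse was left out. For the difference between the sexes it was 0 and became 1 with no filter, and ranged from 0 to 1 with each mouse left out. Between WTF and WTM it was 0, became 1 with no filter and 2, Rmnd5a and Wdr26, in the fit of 4 groups, and ranged from 0 to 1 with each mouse left out. The call made when a mouse was left out was Rmnd5a, without wild type female 1091, each time. The cause was not tested. Over 13 alternatives the log2 fold change of Rmnd5a between KOF and WTF ran from 0.83 to 1.40 and its adjusted p from 0.00849 to 0.419.

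Some values near 0 changed sign. With limma-voom the log2 fold change of Gid4 between KOF and WTF was 0.037 and the difference between the sexes of Rmnd5b was 0.091, and with libraries thinned to the smallest total the difference between the sexes of Gid8 was -0.11. Leaving out each mouse once, the range was -0.30 to 0.29 for Gid4 between KOF and WTF. Between KOM and WTM it was -0.22 to 0.15 for Armc8, -0.073 to 0.19 for Ranbp10, -0.13 to 0.094 for Rmnd5a and -0.11 to 0.049 for Mkln1. For the difference between the sexes it was -0.50 to 0.40 for Rmnd5b and -0.0022 to 0.31 for Gid8. Between WTF and WTM it was -0.43 to 0.16 for Gid4. Between KOF and KOM it was -0.25 to 0.026 for Maea, -0.22 to 0.023 for Wdr26 and -0.049 to 0.11 for Mkln1. Of the log2 fold changes recomputed, 834 kept their direction, 10 passed the threshold where they had not, and 26 changed sign. The 834 also kept their side of the threshold, except that it was not read for Armc8 in comparisons with female livers. There a value of Armc8 was counted as kept when it moved by no more than its SE. With 3 mice a group and 3 to 34 reads per liver, Rmnd5b had the fewest reads of the subunits. Its SE was the largest of them in the difference between the sexes, at 0.74. Between KOF and WTF its SE of 0.395 was slightly below that of Ranbp9, 0.404.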
